A study of Saccharomyces cerevisiae with 24 samples.

Results

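Yeast cells exposed to bleomycin were compared with yeast cells exposed to NaCl on 8 of the 24 arrays of the study: 3 arrays after bleomycin, 3 after NaCl and 2 control arrays. The arrays were chosen by their titles alone, and no measured value entered the choice. All were one-colour Affymetrix Yeast Genome S98 arrays of the Saccharomyces cerevisiae strain BY4730, a haploid laboratory strain that lacks LEU2, MET17 and URA3, and every array followed 120 min of exposure. The titles give bleomycin at 0.15 U/ml for replicates 1 and 3 and at 0.1 U/ml for replicate 2. They give NaCl at 10% for replicate 1, 8% for replicate 2 and 9% for replicate 3, a series that the description text contradicts with a value of 10 mg/mL, so the salt dose is uncertain. Control cells were given DMSO or medium, and which array had which is not in the labels.

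The titles of these arrays carry 4 dates, called days here, and the days set how they were compared. Which step of the work a date marks is not in the titles. Bleomycin replicate 1 and NaCl replicate 1 shared a day, called the first shared day, and the replicates 2 shared another, the second shared day. Bleomycin replicate 3 and NaCl replicate 3 were each taken relative to the control array of their own day, and the difference between those differences is called the difference through controls. These 3 differences share no array. The control arrays of the first and second shared day are given beside them, which makes 10 arrays, so that each agent can also be set against control.

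Bleomycin is a drug that cuts DNA strands. In budding yeast, cut DNA activates the checkpoint kinases Mec1, Rad53 and Dun1, which raise deoxynucleotide supply and relieve Crt1 (Rfx1) repression of the ribonucleotide reductase genes and of HUG1. NaCl raises osmolarity and sodium, and yeast answers through the Hog1 kinase, which raises glycerol synthesis, and through sodium pumps. Both kinds of stress can engage the Msn2 and Msn4 factors, which drive the general stress genes, many of them for heat shock proteins and for trehalose and glycogen metabolism.

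The NaCl arrays did not form a single group. NaCl replicates 2 and 3 correlated with each other at 0.969 but with NaCl replicate 1 at 0.722 and 0.70, while the bleomycin arrays correlated with one another at 0.948 to 0.988. Their median correlation with the control arrays of the series was 0.674 and 0.656, against 0.926 for NaCl replicate 1 and 0.945 to 0.965 for bleomycin. The control probe set at the 3′ end of the actin transcript ACT1 read 7.98 and 8.21 on NaCl replicates 2 and 3 and 10.97 to 11.93 on the other 8 arrays. At the 5′ end the signal was 6.18, 9.42 and 9.01 for bleomycin and 6.10, 6.03 and 6.23 for NaCl, so that the first shared day alone had similar 5′ signals in both agents. The hybridisation control probe sets averaged 10.08 on bleomycin replicate 1, 10.11 to 10.52 with NaCl, 7.95 and 7.44 on the other bleomycin arrays and 8.34 to 9.30 in the controls. The means of 19 control probe sets for non-yeast transcripts were 4.79 and 4.36 on NaCl replicates 2 and 3, and 3.17 to 3.55 elsewhere. The part of these array properties in the results was not tested, so list counts and many single values are given also without NaCl replicates 2 and 3.

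**Figure D1:**
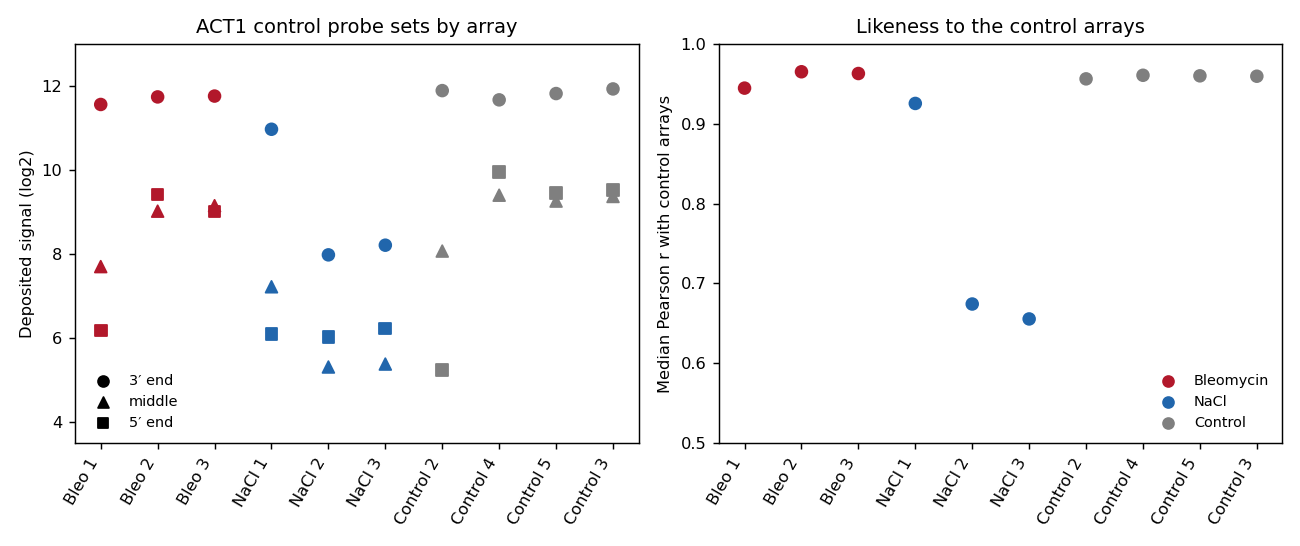
Left, deposited log2 signal of the ACT1 control probe sets for the 3′ end, the middle and the 5′ end of the transcript on each of the 10 arrays. Right, median Pearson correlation of each array with the control arrays of the series, a colour per group. NaCl replicates 2 and 3 lie apart in both panels, with 3′ signals of 7.98 and 8.21 and median correlations of 0.674 and 0.656.

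All signals and differences below are on the log2 scale after quantile normalization, and a difference is bleomycin minus NaCl unless a control is named. The difference was estimated with limma on all 24 arrays with the day as a block, and it lay within 0.225 of a 2:2:1 weighted mean of the 3 differences for every probe set. The arrays outside the comparison include cells given MMS, ethanol or cisplatin. They share in the estimate of spread behind every SE and p-value. The threshold for a call was 0.05 on the p adjusted by Benjamini-Hochberg over 9275 probe sets. Separate cultures are not stated in the labels, so p-values cover only the spread from array to array.

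Of 9275 probe sets, 3086 were called (33.3%), 1420 higher and 1666 lower with bleomycin. Each of 5656 genes was represented by 1 probe set. Of these genes, 1235 were higher (21.8%) and 477 lower (8.43%), with a median difference of 0.30. Without NaCl replicates 2 and 3, 295 genes were called higher (5.22%) and 180 lower (3.18%), and the median was 0.00. In that fit NaCl rests on 1 array, which is assumed to vary like the other groups. The number of called probe sets, 3086 in all, was 395 without bleomycin replicate 2, 503 without NaCl replicate 2, 1093 without bleomycin replicate 3, 1208 without the control of NaCl replicate 3, 1215 without NaCl replicate 3, 1476 without the control of bleomycin replicate 3 and 6110 without NaCl replicate 1. Without bleomycin replicate 2, 252 of the 5656 genes were called higher and 50 lower, and without NaCl replicate 2, 317 and 69. The gene counts were 574 and 129 without bleomycin replicate 3, 624 and 180 without NaCl replicate 3, and 2511 and 1023 without NaCl replicate 1. Fitted on the 8 arrays alone, with 2 residual degrees of freedom, limma called 0 probe sets, while 1727 had an unadjusted p under 0.05. Fitted on the 10 arrays of the 4 days, it called 320.

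The 3 differences were of unequal size. Over probe sets their SD was 0.768 on the first shared day, 1.77 on the second and 1.95 through controls, and 15.9%, 54.9% and 60.4% of probe sets differed at least 2-fold. As a description across probe sets, which are not independent, the second and the third correlated at 0.946, and the first correlated with them at 0.16 and 0.13. Of the 740 probe sets at least 2-fold higher with bleomycin on the first shared day, 52.7% were also at least 2-fold higher in both other differences. Of the 733 at least 2-fold lower on that day, 18.3% were also lower in both others. Reversals were present too: 208 of the 733 were at least 2-fold higher in both others. Of the 740, 92 were at least 2-fold lower in both others. At this size, 390 probe sets were higher and 134 lower with bleomycin in all 3.

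A stricter set of genes was called both with and without NaCl replicates 2 and 3 and had the same sign in all 3 differences. It held 249 genes higher (4.4%) and 65 genes lower with bleomycin (1.15%). Set against control, 42 of the 249 were also called above control with bleomycin and 208 were called below control with NaCl. Of the 65, 5 were called below control with bleomycin and 49 above control with NaCl. Over all genes, limma called 53 above control with bleomycin (0.937%) and 15 below (0.265%), and 772 above control with NaCl (13.6%) and 2001 below (35.4%). Both contrasts use the same control arrays, so their values are given side by side only. Of all probe sets, bleomycin minus control called 75, but 20 without bleomycin replicate 3, 22 without its control, 23 without the control of the second shared day, 26 and 27 without bleomycin replicates 2 and 1, 37 without the control of the first shared day and 225 without NaCl replicate 1. NaCl minus control called 4991, but 1351 without NaCl replicate 3, 1367 without its control, 1529 without NaCl replicate 2 and 229 without NaCl replicates 2 and 3.

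**Figure D2:**
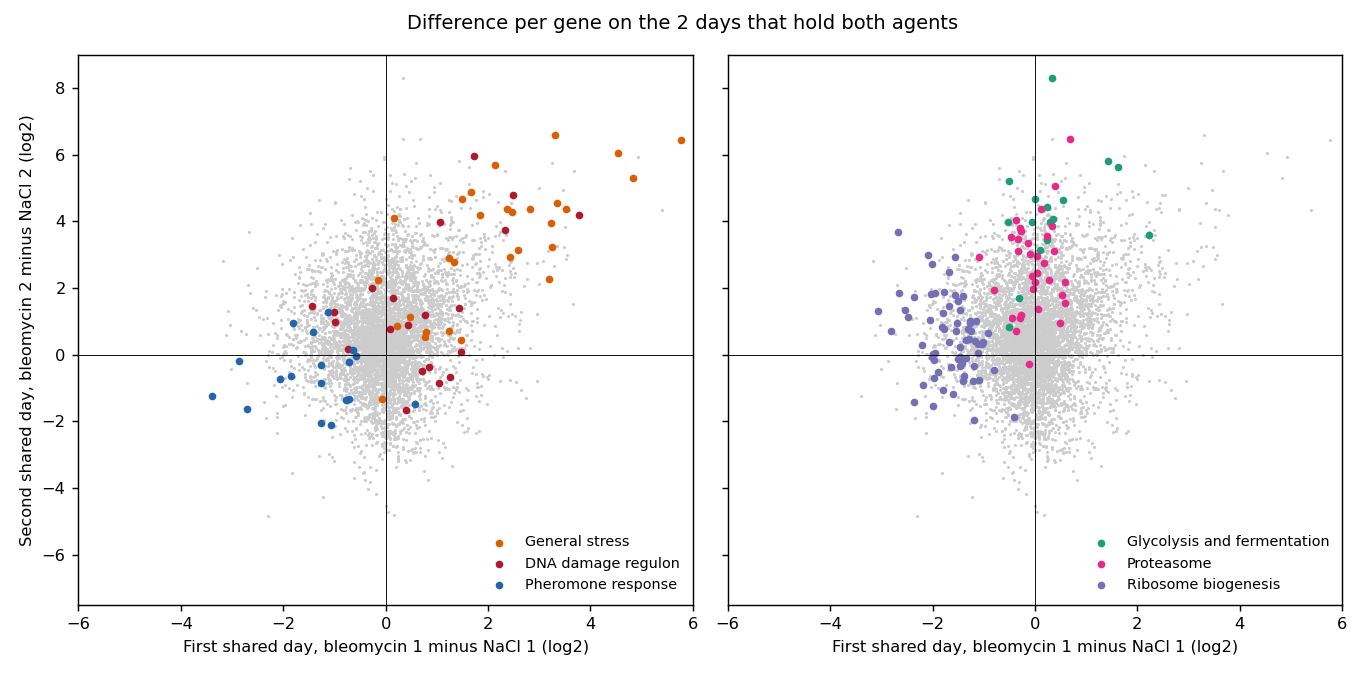
Bleomycin minus NaCl for each of 5656 genes (grey), on the first shared day along the x axis and on the second shared day along the y axis, both log2. Left, general stress genes lie mostly in the upper right and pheromone response genes mostly to the left. Right, glycolysis and proteasome genes spread along the y axis near 0 on the x axis, and all 67 ribosome biogenesis genes lie left of 0.

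Of 21 genes that respond to damaged DNA, 9 were called higher with bleomycin than with NaCl. HUG1, a small inhibitor of ribonucleotide reductase and a target of the checkpoint, read 10.18, 10.26 and 10.67 on bleomycin replicates 1, 2 and 3, and 6.41, 6.08 and 5.77 on NaCl replicates 1, 2 and 3. The 4 controls read 5.61 to 5.83, so that the bleomycin arrays lay over 3 log2 units above every other array and the groups did not overlap. The difference was 4.19 ± 0.28 (SE, 3 arrays per agent; limma, Benjamini-Hochberg adjusted p = 9.75e-06) and 3.88 without NaCl replicates 2 and 3 (adjusted p = 0.00033). Against control, HUG1 was higher by 4.65 with bleomycin (adjusted p = 2.43e-06) and differed by 0.47 with NaCl (adjusted p = 0.13). The call with bleomycin was kept with any of the 10 arrays left out, at an adjusted p of 0.000121 or below. In bulk RNA such as this, a transcript made by more cells and a transcript made more strongly per cell cannot be told apart.

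The small subunits of ribonucleotide reductase, RNR2 and RNR4, were also higher with bleomycin. RNR2 read 11.53, 11.56 and 11.75 with bleomycin, 9.04, 6.79 and 6.94 with NaCl and 9.30 to 9.52 in the controls. NaCl replicate 1 thus lay near the controls and the other NaCl arrays far under them, with no overlap between the agents. The difference in RNR2 was 3.87 ± 0.474 (limma, adjusted p = 0.000502), and it was 2.48 without NaCl replicates 2 and 3 (adjusted p = 0.00286). RNR4 read 11.10, 10.81 and 11.01 with bleomycin and 9.36, 4.86 and 4.47 with NaCl, and its difference moved from 4.36 (adjusted p = 0.00409) to 1.74 without those NaCl arrays (adjusted p = 0.0318).

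The large subunit RNR3, the damage-inducible one, read 6.04, 6.98 and 7.39 with bleomycin and 4.60, 5.59 and 5.92 with NaCl, where controls read 4.64 to 4.81. Its probe set carries a suffix that marks sequence shared between genes, and it was called above control with bleomycin (2.15, adjusted p = 0.00111) and with NaCl (0.71, adjusted p = 0.0349). The difference between the agents was 1.44 ± 0.287 (limma, adjusted p = 0.00631). It was not called without bleomycin replicate 2 (adjusted p = 0.051), and neither was the forkhead-associated domain gene PLM2, whose difference of 1.28 had an adjusted p of 0.00631 with all arrays and 0.0561 without that array.

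RNR1, the constitutive large subunit, read 7.87, 7.90 and 8.29 with bleomycin and 8.88, 6.61 and 6.69 with NaCl. NaCl replicate 1 lay above every bleomycin array and the other NaCl arrays below them, and the difference of 0.43 was not called (adjusted p = 0.46). The kinase gene DUN1 differed by 0.09 (adjusted p = 0.842) and the recombination gene RAD54 by 0.61 (adjusted p = 0.0612).

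Of the 21 measured genes of the DNA damage regulon, 9 were higher with bleomycin, 0 were lower and 12 were not called, with a median of 0.57. Over all genes, 21.8% were higher and the median was 0.30. Apart from those named above, the 9 were TFS1, GRX1, RAD2 and RAD16, the last 3 named after their values were seen. TFS1, an inhibitor of carboxypeptidase Y, differed by 3.21 (adjusted p = 0.000148). The count was 7 of 21 without NaCl replicates 2 and 3, where PHR1 and MAG1 joined and GRX1, RAD2, RAD16 and PLM2 left, 4 of 21 without bleomycin replicate 2 and 6 of 21 without NaCl replicate 2. Against control, 5 of the 21 were called higher with bleomycin, namely HUG1, RNR2, RNR3, TFS1 and PLM2. HUG1 and RNR3 kept that call with any of the 10 arrays left out. RNR2, TFS1 and PLM2 lost it without bleomycin replicate 2 or 3, or the control of the first shared day, the second or bleomycin replicate 3. RNR2 lost it also without bleomycin replicate 1, and TFS1 without NaCl replicate 3 or its control.

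Most genes of homologous recombination and the checkpoint itself were not called, 16 of 19, with a median of -0.01 against 0.30 over all genes. Of all genes, 21.8% were higher and 8.43% lower. Of 19 measured, 0 were higher and 3 lower with bleomycin (MEC1, RAD9 and SRS2), and none of the 19 was called without NaCl replicates 2 and 3. MEC1 differed by -1.81 on the probe set that represents it (adjusted p = 0.00563) and by 0.33 on another (adjusted p = 0.205). Of the 9 probe sets of MEC1, 7 were below 0 and 2 above it, and 1 more was called lower (-1.27, adjusted p = 0.0453). The call of MEC1 and that of RAD9 were lost without NaCl replicate 2 or bleomycin replicate 2. RAD9 also lost its call without NaCl replicate 3, bleomycin replicate 3 or the control of NaCl replicate 3.

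Nearly all general stress genes were higher with bleomycin than with NaCl. Of 29 measured, 27 were higher with bleomycin and 0 lower, with a median of 3.23 against 0.30 over all genes. On the first shared day alone 27 of 29 were above 0, with a median of 2.14 against -0.03 over all genes. Without NaCl replicates 2 and 3, 19 were higher (median 2.10), and 19 belonged to the stricter set. Against control, 21 of the 29 were called lower with NaCl and 7 higher with bleomycin, beside 35.4% and 0.937% of all genes, and without NaCl replicates 2 and 3 the counts were 8 lower with NaCl and 13 higher with bleomycin. The count between the agents was 26 under median scaling, 24 on the deposited values and 19 without bleomycin replicate 2 or NaCl replicate 2. Without NaCl replicate 1, 26 were higher and 1 lower. The count against control with bleomycin, 7 of 29, was 0 to 1 without a bleomycin array or the control of the second shared day or of bleomycin replicate 3, and 14 without NaCl replicate 1.

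HSP30, a stress protein of the plasma membrane that regulates the proton pump Pma1, had the largest difference among the genes named. It read 10.04, 10.74 and 11 with bleomycin, 4.28, 4.29 and 4.24 with NaCl and 9.84 to 10.46 in the controls. The NaCl arrays, those with low ACT1 signal and the other alike, lay close together and far below all 7 other arrays. The difference was 6.18 ± 0.372 (limma, adjusted p = 9.75e-06), a 72.4-fold difference, and it was 5.84 without NaCl replicates 2 and 3 (adjusted p = 0.000171). Against control it was lower with NaCl (-5.87, adjusted p = 5.51e-06) and differed by 0.31 with bleomycin (adjusted p = 0.921).

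Others of the 12 largest differences were also low on all NaCl arrays. YRO2, a membrane protein related to Hsp30, read 8.67, 8.98 and 9.34 with bleomycin, 3.74, 3.05 and 2.76 with NaCl and 7.04 to 8.08 in the controls. CYC7, the isoform of cytochrome c made at low oxygen, read 9.27, 9.09 and 8.96 with bleomycin, 4.44, 3.80 and 3.39 with NaCl and 7.74 to 8.25 in the controls. EGO4 read 10.98, 10.16 and 10.13 with bleomycin and 5.59, 5.81 and 5.85 with NaCl. In each of these genes the NaCl arrays were the low ones, and neither agent's arrays overlapped with those of the other. The differences were 5.55 for YRO2, 5.15 for CYC7 and 4.74 for EGO4, and each adjusted p stayed at 0.000372 or below with any of the 10 arrays left out. Unlike HSP30, all 3 genes had every bleomycin array above every control, where EGO4 read 9.69 to 10.10. None of them was called against control with bleomycin (1.18, 1.04 and 0.53, limma, adjusted p = 0.251, 0.222 and 0.761).

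RGI1, a protein involved in energy metabolism under respiration, differed by 5.30 and the ceramidase gene YPC1 by 4.48. REE1, which takes part in the regulation of enolase, read 9.53, 10.30 and 10.86 with bleomycin and 6.29, 4.56 and 4.75 with NaCl, beside 9.92 to 10.59 in the controls. REE1 was lower than control with NaCl (-4.92, adjusted p = 0.00027), and its bleomycin arrays overlapped with the controls, with a difference of -0.06 (adjusted p = 0.988).

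Some stress genes were also called above control with bleomycin. HSP26, a small heat shock chaperone, read 9.08, 9.27 and 9.62 with bleomycin, 5.74, 4.71 and 4.24 with NaCl and 6.84 to 7.58 in the controls, so that the controls lay between the agents. It was higher than control with bleomycin by 1.97 (adjusted p = 0.0226) and lower with NaCl (-2.24, adjusted p = 0.00154), and the difference was 4.21 ± 0.402 (limma, adjusted p = 0.000141), or 3.30 without NaCl replicates 2 and 3 (adjusted p = 0.000693). DDR2, a stress gene known for its response to DNA damage, read 10.79, 11.33 and 11.62 with bleomycin, 8.36, 8.40 and 8.34 with NaCl and 9.10 to 9.79 in the controls. Its controls too lay between the agents, with 1.66 above control for bleomycin (adjusted p = 0.0168) and -1.12 for NaCl (adjusted p = 0.00785). DDR2 differed between the agents by 2.44 without NaCl replicates 2 and 3 (adjusted p = 0.0054). The calls of HSP26 and DDR2 against control with bleomycin were lost without any 1 bleomycin array, or the controls of the first or second shared day or of bleomycin replicate 3.

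HSP12, which protects membranes, read 11.20, 11.43 and 11.13 with bleomycin and 9.06, 5.73 and 5.46 with NaCl, with controls at 8.71 to 9.41. NaCl replicate 1 lay among the controls, and the difference moved from 4.23 (adjusted p = 0.00237) to 2.10 without the other NaCl arrays (adjusted p = 0.0209). The cytosolic catalase CTT1 differed by 2.37 (adjusted p = 0.00132) and by 1.56 without them (adjusted p = 0.0248).

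**Figure D3:**
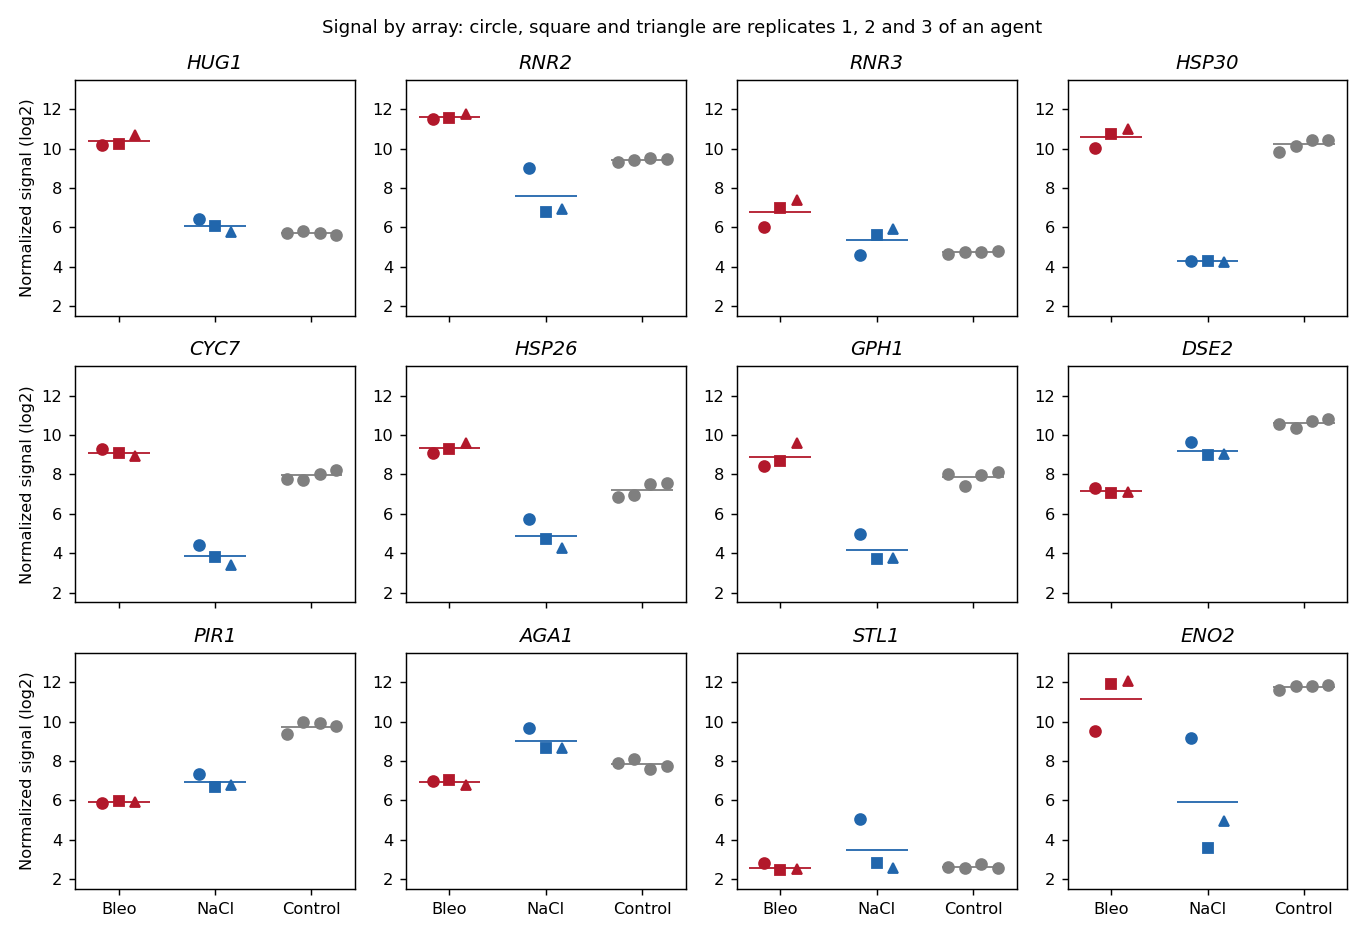
Normalized log2 signal of 12 genes on the 3 bleomycin arrays (red), the 3 NaCl arrays (blue) and the 4 control arrays (grey), with the group mean as a line. HUG1 is high on bleomycin arrays alone, HSP30 and CYC7 are low on all NaCl arrays, DSE2 and PIR1 are below control with both agents, STL1 is high on NaCl replicate 1 and ENO2 is low on NaCl replicates 2 and 3.

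Storage carbohydrate genes were higher with bleomycin, 16 of the 19 measured for trehalose and glycogen metabolism, with 0 lower and a median of 2.10. Of all genes, 21.8% were higher, with a median of 0.30, and 35.4% were called below control with NaCl. All 19 were above 0 on the first shared day (median 1.44), and 10 were called without NaCl replicates 2 and 3. The count was also 10 without bleomycin replicate 2. GPH1, the glycogen phosphorylase, read 8.43, 8.67 and 9.58 with bleomycin, 4.97, 3.73 and 3.78 with NaCl and 7.40 to 8.14 in the controls. Its difference was 4.56 ± 0.396 (limma, adjusted p = 7.8e-05), and the bleomycin arrays lay above all controls without a call against control (0.97, adjusted p = 0.43). GLC3, the glycogen branching enzyme, read 5.88, 5.95 and 6 with NaCl and 9.19 to 9.79 with bleomycin, a difference of 3.41 (adjusted p = 0.000148). PGM2, a phosphoglucomutase, read 9.10, 9.46 and 10.23 with bleomycin and 5.80, 2.86 and 2.73 with NaCl, and GSY1, a glycogen synthase, differed by 2.64 (adjusted p = 0.000589). In all of these genes the NaCl arrays were lower than every control. GPH1, PGM2 and GSY1 differed by 3.80, 3.69 and 3.07 without NaCl replicates 2 and 3 (adjusted p = 0.000965, 0.0321 and 0.00146), and GLC3 was called as well (adjusted p = 0.0015). Against control, 14 of the 19 genes were called lower with NaCl and 0 higher with bleomycin, and without NaCl replicates 2 and 3 the counts were 3 and 2.

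Hexose transporter genes were higher in 6 of 12 and lower in 2 of 12, or in 2 and 0 without NaCl replicates 2 and 3. The counts were 4 and 0 without bleomycin replicate 2 or 3, NaCl replicate 2 or 3, or the control of either replicate 3. With all arrays, 21.8% of all genes were higher and 8.43% lower. HXT4 read 8.83, 8.96 and 9.61 with bleomycin, 5.16, 3.45 and 2.83 with NaCl and 8.82 to 9.13 in the controls, so that bleomycin arrays overlapped with the controls and NaCl arrays lay below both. HXT5, a transporter of slowly growing cells, read 8.34, 8.02 and 7.79 with bleomycin, 6.29, 5.93 and 5.50 with NaCl and 5.84 to 6.21 in the controls. Here the NaCl arrays overlapped with the controls and bleomycin stood above both, by 2.09 ± 0.243 over NaCl (limma, adjusted p = 0.000373) and by 1.99 over control (adjusted p = 0.000716).

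SPG1, PHM8 and NCA3 were likewise called above control with bleomycin and not called against control with NaCl. Of 10 genes of quiescence, 4 were higher with bleomycin and 0 lower: HXT5, SPG1, SPG4 and, named after its value was seen, SIP18. SPG1 read 7.19, 6.68 and 7.00 with bleomycin, 4.78, 5.15 and 5.46 with NaCl and 4.80 to 5.10 in the controls, with a difference of 1.83 (adjusted p = 0.00126). PHM8, a phosphatase of the phosphate starvation list, read 6.81, 7.17 and 6.95 with bleomycin, 4.87, 4.00 and 3.72 with NaCl and 4.49 to 4.98 in the controls. NCA3, of the SUN family of cell wall proteins, read 7.82, 8.64 and 9.45 with bleomycin, 6.62, 6.24 and 6.17 with NaCl and 5.60 to 6.17 in the controls. SPG1, PHM8 and NCA3 were above control with bleomycin by 2.04, 2.09 and 2.65 (adjusted p = 0.00106, 0.00493 and 0.000716). SPG4 was also called above control with bleomycin (2.25, limma, adjusted p = 0.0374). It differed from them in being called below control with NaCl (-1.56, adjusted p = 0.0132). Of the quiescence genes, 3 were above control with bleomycin, but 2 without any 1 bleomycin array. PHM8 lost its call against control without bleomycin replicate 2 (adjusted p = 0.0567), and SPG1 and NCA3 kept theirs with any of the 10 arrays left out. PHM8 was 1 of 14 phosphate genes called higher, and 3 of the 14 were lower, while 4 of 30 cell wall genes were higher and 0 lower. Of all genes, 21.8% were higher and 8.43% lower. Without bleomycin replicate 2 or 3, NaCl replicate 2 or 3, or the control of NaCl replicate 3, PHM8 was 1 higher of the 14 with 0 lower, and 1 cell wall gene was higher and 0 lower. Without NaCl replicate 1, 2511 of all 5656 genes were called higher and 1023 lower. In that fit the phosphate genes gave 7 higher and 4 lower and the cell wall genes 18 and 4. Without NaCl replicates 2 and 3 they gave 1 and 3, and 1 and 1.

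**Figure D4:**
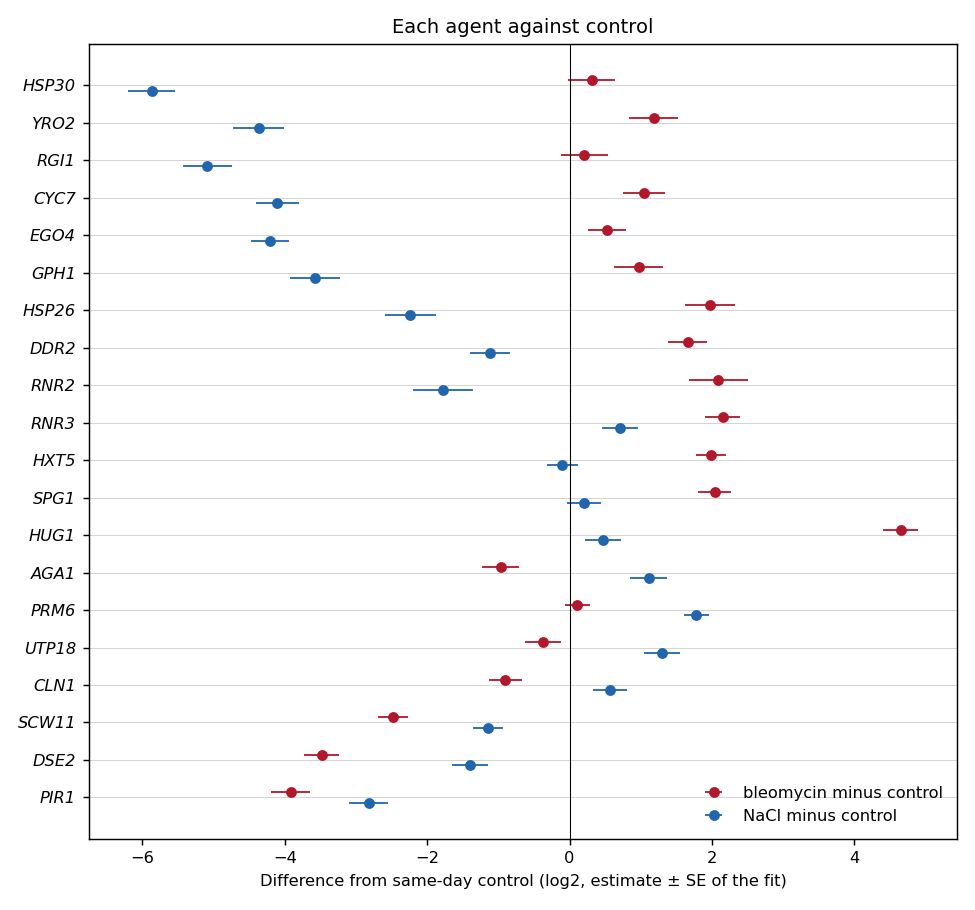
Difference from control for bleomycin (red) and NaCl (blue) in 20 of the genes chosen by the naming rule, as the fitted log2 value with its SE. HSP30 is at 0.31 with bleomycin and -5.87 with NaCl, HUG1 at 4.65 and 0.47, and DSE2 at -3.48 and -1.40. Both contrasts use the same control arrays.

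Pheromone response genes were lower with bleomycin than with NaCl. Of 18 measured, 10 were lower and 0 higher, with a median of -1.03, and 10 were lower without NaCl replicates 2 and 3 (median -1.22). Of all genes, 8.43% and 3.18% were lower in these fits. The medians of the 3 differences were -1.27, -0.68 and -0.59. By most of its markers the strain is of mating type a. In the controls the a-factor gene MFA1 read 11.84 to 12.06. The receptor gene STE3 of alpha cells read 3.67 to 4.06 and their pheromone gene MF(ALPHA)1 5.02 to 5.43. The alpha-cell gene SAG1 did not follow this, at 6.23 to 6.60, beside 5.87 to 6.34 for the a-cell gene STE6. With bleomycin replicate 2 left out 4 of the 18 were lower, and without NaCl replicate 1 there were 9 lower and 3 higher. Against control, 10 of the 18 were called higher with NaCl and 0 lower with bleomycin, or 6 and 2 without NaCl replicates 2 and 3.

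AGA1, the anchor subunit of a-agglutinin on the cell surface, read 6.99, 7.01 and 6.80 with bleomycin, 9.69, 8.65 and 8.65 with NaCl and 7.60 to 8.10 in the controls. The controls lay between the agents, without overlap, and the difference was -2.08 ± 0.298 (limma, adjusted p = 0.00116), or -2.72 without NaCl replicates 2 and 3 (adjusted p = 0.000773). PRM6, a pheromone-regulated gene, read 3.37, 3.27 and 3.13 with bleomycin, 4.63, 5.33 and 5.11 with NaCl and 2.98 to 3.30 in the controls. It was near the low end of the signal scale except with NaCl, where it was called above control (1.78, adjusted p = 0.000221), and the difference was -1.67 (adjusted p = 0.000426). PRM2, another gene of this kind, differed by -1.63 (adjusted p = 0.00281), which was not called without NaCl replicates 2 and 3 (-1.09, adjusted p = 0.0635).

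Of the 6 a-cell genes, AGA2, the adhesive partner of Aga1, read 7.66, 7.40 and 7.15 with bleomycin and 8.89, 8.75 and 8.73 with NaCl, a difference of -1.39 (adjusted p = 0.00438). The receptor gene STE2 read 9.02 on NaCl replicate 1 but 5.06 and 5.64 on NaCl replicates 2 and 3, against 7.85 to 8.16 with bleomycin, so the days disagreed on its direction. BAR1, the protease that degrades alpha-factor, was lower with bleomycin (-1.18, adjusted p = 0.0306). It lost its call when any 1 of the 3 bleomycin arrays, NaCl replicate 1 or 3, or the control of either replicate 3 was left out. MFA1 differed by -1.01 (adjusted p = 0.0485), and 9 of the 10 arrays ended its call when left out, the exception being the control of the first shared day. None of the 4 alpha-cell genes was called.

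A list of 23 measured genes covers cell separation and the passage from mitosis to G1 (M/G1). Of these, 9 were called lower than control with bleomycin, out of 15 genes called lower among all 5656. With NaCl, 35.4% of all genes were called lower than control and 13.6% higher. Of the 23, 14 were called lower than control with NaCl and 2 higher. The 2 were CLN3 and PCL2, named after their values were seen (1.08 and 0.70, limma, adjusted p = 0.00975 and 0.0416). In the fit without NaCl replicates 2 and 3, 6 were lower and 0 higher with NaCl. With 1 of the 10 arrays left out, 6 to 9 were lower than control with bleomycin, or 12 without NaCl replicate 1. DSE2, a daughter-specific glucanase-like protein, read 7.30, 7.08 and 7.11 with bleomycin, 9.64, 8.97 and 9.02 with NaCl and 10.34 to 10.82 in the controls. The groups were in this order without overlap, with -3.48 for bleomycin minus control (adjusted p = 2.47e-05), -1.40 for NaCl minus control (adjusted p = 0.00241) and -2.08 ± 0.282 between the agents (limma, adjusted p = 0.000859).

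SCW11, another glucanase-like cell wall protein, had the same order at 4.16 to 4.40, 5.21 to 5.89 and 6.45 to 6.86, and differed by -1.34 (adjusted p = 0.00368). PIR1, a wall mannoprotein, read 5.85, 5.99 and 5.91 with bleomycin, 7.32, 6.66 and 6.80 with NaCl and 9.36 to 9.96 in the controls. The agents did not overlap in PIR1, and the difference was -1.10 (adjusted p = 0.0241), but the call was lost without bleomycin replicate 2 (adjusted p = 0.105) or 3 (adjusted p = 0.0703). The wall protein gene EGT2 differed by -0.85 (adjusted p = 0.0388), a call that 8 of the 10 arrays ended when left out, the exceptions being NaCl replicate 1 and the control of the first shared day.

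DSE1 read 2.66, 2.19 and 2.53 with bleomycin, 3.60, 2.23 and 2.14 with NaCl and 5.03 to 5.92 in the controls, so it fell with both agents and differed between them by -0.42 without a call (adjusted p = 0.366). The chitinase gene CTS1, which also acts in separation, read 7.38, 7.92 and 8.42 with bleomycin, but 10.07 on NaCl replicate 1 and 5.85 and 6.62 on the others, and its difference of 0.12 was not called (adjusted p = 0.929). Between the agents, 6 of the 23 genes were lower with bleomycin and 3 higher, a split that was 3 and 3 under median scaling and 4 and 1 without NaCl replicates 2 and 3. It was 2 and 0 without bleomycin replicate 2 or 3, 3 and 0 without NaCl replicate 3, its control or the control of bleomycin replicate 3, 3 and 1 without NaCl replicate 2, and 10 and 3 without NaCl replicate 1. The other lower ones were PRY3 and ASH1 and the higher ones RME1, PST1 and PIR3, all named after their values were seen. With all arrays, 8.43% of all genes were lower with bleomycin than with NaCl and 21.8% higher.

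Among cell cycle genes, the G1 cyclin CLN1 read 5.19, 5.06 and 4.52 with bleomycin, 7.22, 6.03 and 5.83 with NaCl and 5.50 to 6.08 in the controls. The difference was -1.48 ± 0.266 (limma, adjusted p = 0.00389) and the agents did not overlap. The S phase cyclin CLB6 differed by -0.99 (adjusted p = 0.00548), and it was called above control with NaCl (1.28, adjusted p = 0.000794). Of all genes, 8.43% were lower and 21.8% higher. Of 20 genes of cyclins and the G2/M phase, 3 were lower (with MYO1, named after its value was seen) and 1 higher, SPO12, a regulator of mitotic exit. Without bleomycin replicate 2 or 3, NaCl replicate 2 or 3, or the control of either replicate 3, 2 were lower and 0 higher, and without NaCl replicate 1 the counts were 6 and 6. HTB2, a histone H2B gene, read 6.83, 6.56 and 6.68 with bleomycin, 8.42, 7.72 and 7.23 with NaCl and 8.44 to 8.99 in the controls. Its difference was -1.26 (adjusted p = 0.0308), called below control with both agents, and the call between agents was lost without bleomycin replicate 2 or 3, NaCl replicate 1 or 2, or the control of bleomycin replicate 3.

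Ribosome biogenesis genes, which encode the factors that assemble ribosomal subunits in the nucleolus, separated the days. On the first shared day all 67 measured were lower with bleomycin, from -3.07 to -0.41, with a median of -1.56 against -0.03 over all genes. On the second shared day and through controls their medians were 0.41 and 0.45, against 0.55 and 0.67 over all genes. With all arrays 12 of the 67 were called lower and 0 higher, beside 8.43% and 21.8% of all genes. Without NaCl replicates 2 and 3, 28 were called lower and 0 higher. The count was 6 of 67 without bleomycin replicate 2, 7 without NaCl replicate 2 or bleomycin replicate 3, and 8 under median scaling. Without NaCl replicate 1, whose pair is the first shared day, 11 were lower and 24 higher. In that fit 1023 of all 5656 genes were lower and 2511 higher, so many calls were gained outside this list too.

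SSF1, a factor of large subunit assembly, read 6.57, 5.41 and 5.25 with bleomycin, 8.95, 6.84 and 6.52 with NaCl and 5.89 to 6.77 in the controls. Values of the first shared day were higher than those of other days in both agents, and bleomycin replicate 1 overlapped with NaCl replicate 3, while each within-day difference was negative (-1.78 ± 0.341 in the fit; limma, adjusted p = 0.00532). UTP18, of the small subunit processome, read 6.75, 6.84 and 6.99 with bleomycin, 8.75, 8.39 and 8.66 with NaCl and 7.13 to 7.58 in the controls. It was called above control with NaCl (1.30, adjusted p = 0.00336) and lower with bleomycin than with NaCl (-1.67, adjusted p = 0.00324). NOG2, a GTPase of large subunit assembly, differed by -1.52 (adjusted p = 0.0031) on the probe set that represents it and by -0.09 on its dimmer one (adjusted p = 0.787).

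**Figure D5:**
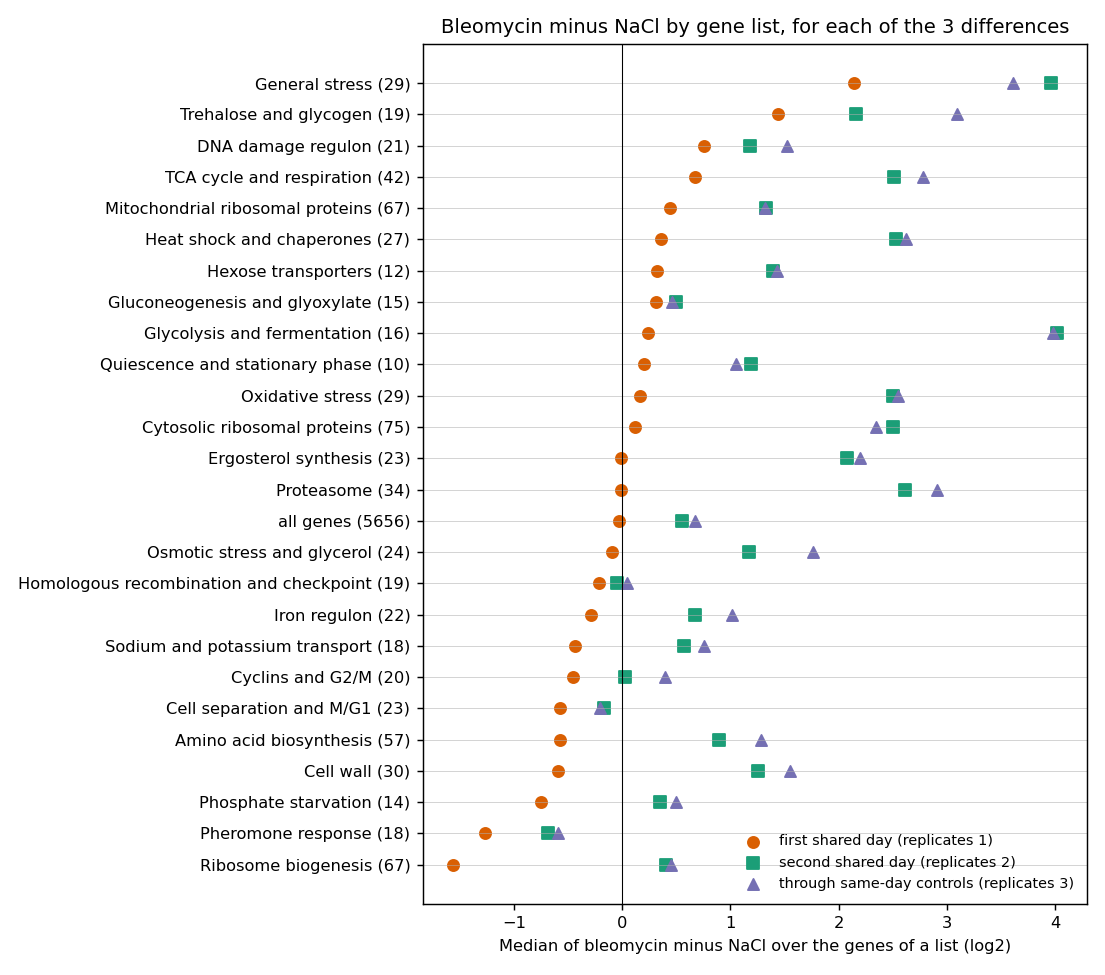
Median of bleomycin minus NaCl (log2) over the measured genes of 25 lists and over all genes, for the first shared day (circles), the second shared day (squares) and through same-day controls (triangles), with the number of genes in brackets. General stress genes are above 2 in each, and ribosome biogenesis genes are at -1.56 on the first shared day and at 0.41 and 0.45 in the others.

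Several gene groups were higher with bleomycin in the fit of all arrays and near 0 on the first shared day. In that fit 21.8% of all genes were higher and 8.43% lower. Of 16 glycolysis and fermentation genes 13 were higher, with medians of 0.24, 4.02 and 3.98 in the 3 differences, and 1 was called without NaCl replicates 2 and 3. Of 34 proteasome genes 20 were higher, with medians of -0.01, 2.61 and 2.91, and 0 were called without those arrays. Cytosolic ribosomal protein genes were higher in 31 of 75 and lower in 2, with 0 called without those arrays. With any 1 of bleomycin replicates 2 and 3 or NaCl replicates 2 and 3 left out, 252 to 624 of all 5656 genes were higher. In these fits the proteasome and cytosolic ribosomal protein counts were also 0, and the glycolysis count was 1 to 3. Without the control of NaCl replicate 3 these counts were 0, 0 and 3, and without that of bleomycin replicate 3 they were 2, 3 and 6. Without the control of the second shared day they were 8, 10 and 9, and without NaCl replicate 1 they were 32, 61 and 15. Of all genes, 968 and 2511 were higher in these last 2 fits.

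Chaperone genes were higher in 18 of 27 (1 without NaCl replicates 2 and 3), mitochondrial ribosomal protein genes in 39 of 67 (2 without), ergosterol genes in 9 of 23 (1 without) and oxidative stress genes in 18 of 29 (5 without). Respiration and citric acid cycle genes were higher in 35 of 42 and stood somewhat apart, with a first-day median of 0.67 and 7 called without those arrays. With all arrays, 21.8% of all genes were higher. With bleomycin replicate 2 alone left out, the counts were 2 chaperone, 2 mitochondrial ribosomal protein, 1 ergosterol, 6 oxidative stress and 7 respiration genes. With NaCl replicate 2 alone left out they were 2, 5, 1, 7 and 9. Of all 5656 genes, 252 and 317 were higher in these fits, so calls were lost outside these lists too. ENO2, an enolase, read 9.51, 11.90 and 12.08 with bleomycin, 9.17, 3.59 and 4.96 with NaCl and 11.63 to 11.84 in the controls. Both arrays of the first shared day were thus below the controls and alike. The difference in ENO2 was 4.69 (adjusted p = 0.0214) with all arrays and 0.94 (adjusted p = 0.713) without NaCl replicates 2 and 3. It was not called without NaCl replicate 2 or 3, bleomycin replicate 2 or 3, or the control of NaCl replicate 3. The ENO2 probe set may also bind transcripts of its close relative ENO1, so these genes cannot be told apart with certainty.

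PRE5, a proteasome core subunit, read 8.22, 8.87 and 9.12 with bleomycin and 7.54, 2.41 and 3.14 with NaCl, with controls at 8.10 to 8.78. NaCl replicates 2 and 3 were over 4 log2 units below every other array, and the first-day arrays differed by 0.68. Its difference of 4.10 (adjusted p = 0.0171) lost its call without the same 5 arrays as that of ENO2. ACT1 itself differed by 1.62 (adjusted p = 0.0272) and by 0.65 without those arrays (adjusted p = 0.574), and it lost its call without 1 of these 5 or the control of bleomycin replicate 3. By contrast MDH1, the mitochondrial malate dehydrogenase, read 8.39, 9.20 and 9.04 with bleomycin and 6.48, 6.72 and 6.89 with NaCl, so that all NaCl arrays were low, and it differed by 2.16 (adjusted p = 0.00055) and by 1.91 without them (adjusted p = 0.00801). GTT1, a glutathione transferase, read 9.39, 9.47 and 9.92 with bleomycin and 6.86, 4.70 and 3.57 with NaCl, and GRX2, a glutaredoxin, read 9.68, 9.26 and 9.45 against 8.00, 7.71 and 7.92. GTT1 and GRX2 were called with and without NaCl replicates 2 and 3.

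Genes known from the osmotic response did not stand higher with NaCl as a group. Of all genes, 21.8% were higher with bleomycin and 8.43% lower, with medians of -0.03, 0.55 and 0.67 in the 3 differences. Of 24 osmotic stress and glycerol genes, 9 were higher with bleomycin, 2 lower and 13 not called, with medians of -0.09, 1.17 and 1.76. Without NaCl replicates 2 and 3 the counts were 3 and 2. They were 4 and 1 without bleomycin replicate 2 or NaCl replicate 2, 5 and 1 without bleomycin replicate 3, 5 and 2 without NaCl replicate 3 or its control, and 16 and 1 without NaCl replicate 1. In that last fit 2511 of all 5656 genes were higher and 1023 lower. The glycerol synthesis genes GPD1, GPP1 and GPP2 differed by 0.38, 1.20 and 1.01 (adjusted p = 0.335, 0.101 and 0.0984). GPD1, the glycerol phosphate dehydrogenase, read 9.26, 10.19 and 9.97 with bleomycin, 9.48, 9.18 and 9.26 with NaCl and 8.90 to 9.35 in the controls, with overlapping arrays.

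The 2 genes that were lower with bleomycin were STL1 and, named after its value was seen, the glycerol channel gene FPS1 (-1.20, adjusted p = 0.013). STL1, the glycerol and proton symporter, read 5.07 on NaCl replicate 1 and 2.81 and 2.55 on NaCl replicates 2 and 3. It read 2.45 to 2.80 with bleomycin and 2.54 to 2.75 in the controls, below 3.79, the 20th percentile of all signals. NaCl replicate 1, the array with the highest labelled dose, alone stood out, and the agents otherwise overlapped. The difference of -1.13 (adjusted p = 0.0469) was -2.43 without NaCl replicates 2 and 3 (adjusted p = 0.000429) and was lost without NaCl replicate 1 (adjusted p = 0.269). It was also lost without NaCl replicate 2, any 1 bleomycin array, or the controls of the second shared day or of bleomycin replicate 3.

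Higher with bleomycin among these genes were YGP1, a secreted glycoprotein, GCY1, a glycerol dehydrogenase, and GRE3, an aldose reductase. YGP1 read 11.51, 11.63 and 11.74 with bleomycin, 7.92, 7.29 and 6.91 with NaCl and 10.32 to 10.65 in the controls, with a difference of 4.13 ± 0.438 (limma, adjusted p = 0.000231), or 3.56 without NaCl replicates 2 and 3 (adjusted p = 0.00425). All 3 were called lower than control with NaCl (-3.10, -1.30 and -1.06), and none was called against control with bleomycin. Of 18 sodium and potassium transport genes, 2 were higher and 2 lower, and 0 were called without NaCl replicates 2 and 3. Without NaCl replicate 1 the counts were 9 higher and 3 lower, beside 2511 and 1023 of all 5656 genes. Without bleomycin replicate 2 or NaCl replicate 2 no transport gene was called. With all arrays, 21.8% of all genes were higher and 8.43% lower. ENA1, the main sodium pump, had no probe set with a single gene here. The antiporter gene NHA1 differed by -0.68 (adjusted p = 0.0455), a call that any 1 of the 10 arrays ended when left out.

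Among the largest differences in the other direction, some were shared by all NaCl arrays and others were those of NaCl replicates 2 and 3. The uncharacterised gene YLR285C-A read 6.21, 6.27 and 5.61 with bleomycin, 8.51, 11.11 and 10.96 with NaCl and 6.49 to 7.27 in the controls. SNR14, the U4 spliceosomal RNA, read 7.18, 6.61 and 6.33 with bleomycin, 9.00, 10.17 and 10.10 with NaCl and 6.78 to 6.88 in the controls. In both genes all NaCl arrays were high, and the differences of -3.91 (adjusted p = 0.00126) and -2.90 (adjusted p = 0.000624) were called without NaCl replicates 2 and 3 too (adjusted p = 0.0126 and 0.0101).

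PHO5, the repressible acid phosphatase, read 6.76, 6.50 and 5.77 with bleomycin but 7.19, 10.01 and 9.88 with NaCl, and its difference was -2.43 (adjusted p = 0.0224) and -0.56 without NaCl replicates 2 and 3 (adjusted p = 0.688). The call was lost without any 1 of those arrays, bleomycin replicates 2 and 3 or the control of NaCl replicate 3. The histidine synthesis gene HIS3 differed by -3.12 (adjusted p = 0.0129) on 1 probe set and by 0.58 on another (adjusted p = 0.326), and YPT11 and TRM3 had such disagreeing probe sets as well. HIS3 lost its call without NaCl replicate 2 or bleomycin replicate 2. URA3, deleted in the strain, read 3.23 to 3.36 with bleomycin and 3.72, 4.14 and 4.64 with NaCl, a called difference of -0.79 (adjusted p = 0.0318) that was lost without NaCl replicate 2 or 3, bleomycin replicate 2 or 3, or the control of either replicate 3. A LEU2 probe set, also for a deleted gene, read 8.05 and 7.88 on NaCl replicates 2 and 3 and 4.81 to 5.42 on the other arrays. Of the 2771 probe sets without a single gene, 119 were higher and 1027 lower with bleomycin, with a median of -0.78.

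Of the amino acid synthesis genes 5 of 57 were higher and 6 lower, and of iron regulon genes 4 of 22 were higher and 0 lower, with 0 higher in both lists and 4 and 2 lower without NaCl replicates 2 and 3. With all arrays, 21.8% of all genes were higher and 8.43% lower. Without NaCl replicate 1 the amino acid genes gave 32 higher and 7 lower and the iron genes 11 and 1, beside 2511 and 1023 of all 5656 genes. Without bleomycin replicate 2 or NaCl replicate 2, 0 were higher in either list, and without bleomycin replicate 1 the amino acid genes gave 16 higher and 4 lower. LYS21, a homocitrate synthase of lysine synthesis, read 8.47, 8.05 and 7.49 with bleomycin and 9.54, 10.22 and 10.24 with NaCl, and MET10, a sulfite reductase subunit, read 5.30 to 5.58 against 6.58 to 6.69. Both were higher on every NaCl array than on any bleomycin array, with differences of -1.83 (adjusted p = 0.00455) and -1.26 (adjusted p = 0.00461), neither of them called without NaCl replicates 2 and 3 (adjusted p = 0.0884 and 0.0598). Of 15 gluconeogenesis and glyoxylate genes 6 were higher and 1 lower, ADH2, the alcohol dehydrogenase of ethanol use, which read 6.36 to 6.65 with bleomycin and 7.29 to 8.11 with NaCl (-1.16, adjusted p = 0.0106), a call lost without NaCl replicate 2 or bleomycin replicate 2. The count of gluconeogenesis and glyoxylate genes called higher was 1 without NaCl replicates 2 and 3, and also 1 without bleomycin replicate 2 or 3 or NaCl replicate 2.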

How the data were processed

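The deposited table, made by the authors, holds 1 signal per probe set and array on the log2 scale, with values from 1.42 to 14.39. How the signals were summarised and normalized is not given in the sources used here. Per the labels' protocols, biotin-labelled cRNA was made from poly(A)+ RNA. No count or depth underlies these values, and the number of arrays limits the precision.

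Values of 9275 probe sets, without 60 controls, were quantile-normalized with R 4.3.3 and limma 3.58.1. lmFit with group and day (from the titles) used all 24 arrays (8 residual degrees of freedom), followed by eBayes with a trend on intensity. The title of ethanol replicate 1 carries another year. This array was given the date of the control array that matched it in month and day of the month. Benjamini-Hochberg adjustment ran over all 9275. The given probe table paired 6504 probe sets with 1 gene, 328 with several and 2443 with none, and the brightest stood for each of 5656 genes. Deviations of same-day arrays from their group means correlated at -0.579 to 0.686 over 8 pairs, so the pairing by day rests on the labels. No pair of array columns was identical.

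Named were the 12 largest differences each way among called genes above the 20th percentile of signal with the same sign in all 3 differences, up to 3 called genes per list with the smallest p, and a preset group of 27, 115 in all. Exceptions are marked. The members and the gene lists were chosen with earlier results of these data known. The fit was tested on simulated data with 200 changed probe sets. These data had no day effect and no split among the NaCl arrays. The test therefore does not cover the unequal state of the arrays seen here. Alternatives changed the arrays, day block, scaling, pseudocount, filter, trend and weights. Python 3.11.15 with matplotlib 3.10.9 drew the figures.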

Additional observations from a re-analysis of the deposited data

Results flagged for a closer look

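Some control probe sets, which no comparison used, exceeded every control array by over 1 log2 unit. On bleomycin replicate 3 a probe set for 18S ribosomal RNA read 8.22, against at most 5.96 on a control array, and another ribosomal RNA probe set, for the large subunit, read 11.12, against at most 7.37. On NaCl replicates 2 and 3 a probe set for the opposite strand of the spiked bacterial BioB transcript read 7.84 and 7.74, against at most 6.62. A second BioB probe set of that kind read 6.55 on NaCl replicate 2, against at most 5.49, and one for BioC read 6.45 on NaCl replicate 3, against at most 5.38.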

How the results depend on the processing

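The counts of called probe sets depended on the arrays and the settings fitted. Bleomycin minus NaCl gave 3086 calls with all arrays and 395 to 6110 with 1 array left out. It gave 0 on the 8 arrays alone, 320 on the 10 arrays of the 4 days (318 of them among the 3086), 579 without NaCl replicates 2 and 3, 1689 with 1 probe set per gene above the 20th percentile, 524 at least 2-fold in each of the 3 differences (chosen after seeing the data) and 6561 with array weights, whose estimation stopped before it had converged. Without the day as a replicate block it gave 4188 and with a random replicate block 4247. These 2 fits had 18 residual degrees of freedom, against 8 with the fixed block. Bleomycin minus control gave 75 calls, 20 to 225 with 1 array left out, and 0 and 7 on the 8 and the 10 arrays. It gave 179 without the replicate block, 184 with a random one, 229 with an ACT1 5′ class in its place, 116 with median scaling, 123 on the deposited values, 974 with array weights and 196 without NaCl replicates 2 and 3. NaCl minus control gave 4991 calls, 1351 to 6669 with 1 array left out, 0 and 2804 on the 8 and the 10 arrays, 2673 with 1 probe set per gene and 229 without NaCl replicates 2 and 3. On the 8 arrays, 75 and 2130 probe sets had an unadjusted p under 0.05 against control. The deposited values moved the median of bleomycin minus NaCl over all probe sets from -0.06 to -0.23. Of 115 named genes 105 were called, 57 of them with each of the 10 arrays left out in turn, 49 lost the call without NaCl replicates 2 and 3, and no called difference reversed under the alternatives run. The cause of these changes was not tested. The limits are 3 arrays per agent, unequal array state, doses that differ between replicates and a summary method that is not stated.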
